A study of Mus musculus with 6 samples.

Results

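Proliferins are secreted hormones of the prolactin family, encoded in the mouse by a small block of near-identical Prl2c genes on chromosome 13. They make up 2 of the 29742 gene names on the arrays used here and are read by 5 of the 41174 different non-control probes, 3 carrying the array name Plf2 (now Prl2c3) and 2 carrying the name Mrpplf4 (now Prl2c5). No probe was named Plf, Plf3 or Mrpplf3. They were selected on their measured log2 ratios after H2O2, where they stood at the upper end. Every value of the H2O2 comparisons below is therefore a description and was not tested. The selection did not use the ratios of untreated mutant over untreated wild type cells. These ratios are not fully apart from it, since a low level in untreated wild type cells raises both kinds of ratio. Whether their arrays carried RNA of other cultures is not given.

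The cells were primary mouse embryonic fibroblasts, connective tissue cells grown from minced embryos, of a mixed genetic background that included Black Swiss. They were either wild type or homozygous for Wrn Δhel, an in-frame deletion of part of the helicase domain of Wrn, the mouse homologue of the gene mutated in Werner syndrome. Each of 3 comparisons had 2 arrays: wild type cells exposed to 0.5 mM H2O2 for 1 hour and collected 24 hours after the medium was changed, against untreated wild type cells, the same comparison in Wrn Δhel/Δhel cells, and mutant against wild type cells with no H2O2 given. All cultures grew in DMEM with fetal serum and came from embryos of embryonic day 15 by the sample labels, which call the arrays of a pair biological replicates. The labels name total RNA and the methods of the study cytoplasmic RNA.

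Proliferins are best known from the trophoblast giant cells of the placenta, which secrete them in mid gestation, and they promote the growth of blood vessels. Unlike prolactin and the placental lactogens they are not known for acting through the prolactin receptor, and they bind the cation-independent mannose 6-phosphate receptor, the product of Igf2r, which carries many glycoproteins to lysosomes. They were first met as transcripts that serum and growth factors raise in cultured fibroblasts, and the proliferin promoter became a textbook case of a composite element at which the glucocorticoid receptor and AP-1, a dimer of Fos and Jun proteins, meet.

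The copies are so alike that most probes could not tell them apart. By the array's own annotation, all 3 Plf2 probes match transcripts of Prl2c3 and Prl2c2 and a further RefSeq transcript with no current symbol, 1 of the Mrpplf4 probes (A_52_P511450) matches these and Prl2c5, and the other (A_52_P619248) is listed for Prl2c5 alone. Only the last could in principle be read as a single gene, and the others are sums over copies. The likeness reaches into the promoters, shown here because the probes sum over several copies. The 250 bases before the transcript starts of Prl2c3 (chr13:12800080-12800329, minus strand) and Prl2c5 (chr13:13182466-13182715, plus strand), from RefSeq on GRCm38.p6, are printed 5′ to 3′ along each gene, and capitals mark the bases that differ between them or lie opposite a gap in a global alignment.
Prl2c3: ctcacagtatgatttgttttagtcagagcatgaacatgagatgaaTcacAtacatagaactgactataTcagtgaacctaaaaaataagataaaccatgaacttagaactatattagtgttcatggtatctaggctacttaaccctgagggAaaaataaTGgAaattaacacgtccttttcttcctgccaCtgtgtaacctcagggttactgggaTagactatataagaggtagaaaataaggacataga
Prl2c5: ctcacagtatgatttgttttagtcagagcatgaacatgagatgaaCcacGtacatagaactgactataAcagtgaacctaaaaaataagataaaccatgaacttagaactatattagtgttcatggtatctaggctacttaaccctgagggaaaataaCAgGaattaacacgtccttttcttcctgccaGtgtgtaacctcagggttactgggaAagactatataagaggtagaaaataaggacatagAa
Over the 251 aligned columns the pair was 96% identical, with 8 substitutions and 2 gap columns. Both hold the TATA box letters TATATAA, on the printed strand and starting 30 bases before the start in Prl2c3 and 31 in Prl2c5, a match found on either strand in 3.04% of the 32851 promoters of the table over the same 250 bases. The letters TGANTCA, a loose form of the AP-1 site, were also searched on both strands and occur in 6.75% of these promoters. They were found in Prl2c3, as tgaaTca starting 209 bases before the start, and were not found in this window of Prl2c5, where the substitution T46C falls within the same stretch (positions count from 1 at the first printed base, with the base of Prl2c3 first). The middle letter of the search could be any base and was A in this match, and the 6.75% counts any middle base. Whether AP-1 binds these letters was not tested. The match was not identified with the composite element named above, which was not located here. The arrays give no readout of either.

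Signals of the proliferin probes were strong. All 30 spots (5 probes on 6 arrays) were well above background in both dyes and none was saturated, with mean signals of 274 to 6400 in Cy3 and 819 to 5544 in Cy5 over local backgrounds of 35 to 51 and 41 to 46. The extraction software marked 4 of the 30 spots as outliers, and these were left out of the fits: A_51_P312780 and A_52_P84814 on wild type array 2, and A_52_P619248 on mutant array 2 and on array 4 of the untreated comparison. The arrays differed in quality as a whole, with 166 to 9368 outlier spots among 41534 (most on wild type array 2), and correlations between paired arrays of r = 0.778, 0.624 and 0.541 over all probes. Each treatment array carried the treated sample in Cy5 and no dyes were exchanged on any array, so that the preference of a probe for a dye enters every ratio.

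For the untreated comparison the sources disagree. The sample labels put wild type RNA in Cy5, whereas the study's own list of this comparison runs the other way, with the mutant in Cy5. The second direction is used throughout as the likely one, and it opposes the labels. Its basis is independent of the proliferins: over 200 other bright probes that differed more than 4-fold on these arrays, 98.5% had the same sign when untreated mutant and untreated wild type signals were set against each other within Cy3 of the treatment arrays (r = 0.939 across probes, which are not independent). Over all 8055 other bright probes, whatever their difference, 70.5% had the same sign (r = 0.757). With the dyes as labelled, every log2 ratio of arrays 3 and 4 below has the opposite sign, while values from the treatment arrays alone do not depend on this.

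In wild type cells, transcripts of the proliferin block stood 8.47 to 17.5 times higher 24 hours after H2O2. The probe shared by all copies, A_52_P511450, gave log2 ratios of treated over untreated cells of 3.80 and 4.27 on arrays 1 and 2, a mean of 4.04 (SE 0.23) or 16.4-fold. The Prl2c5 probe A_52_P619248 gave 3.89 and 4.37, a mean of 4.13 (SE 0.21) or 17.5-fold. Both Mrpplf4 probes were thus high on each array, and slightly higher on array 2.

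The Plf2 probes were less uniform. A_51_P312779 read 3.37 and 2.80, a mean of 3.08 (SE 0.23) or 8.47-fold. A_51_P312780, annotated to the same transcripts, read 3.96 on array 1 and 4.40 at its outlier spot on array 2. A_52_P84814 read 3.74 on array 1 and 4.29 at its outlier spot. On array 2, A_51_P312779 therefore lay well below the 4 other probes, which ranged from 4.27 to 4.40, although 2 probes with the same annotation were among them. Over the 5 probes the median log2 ratio was 3.96 (15.6-fold), or 4.04 with the outlier spots kept. Among 13545 bright probes (mean log2 intensity above 6, with a value on both arrays), A_52_P619248 ranked 1, A_52_P511450 ranked 2 and A_51_P312779 ranked 4 from the top, which is the end of the list they were taken from.

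**Figure D1:**
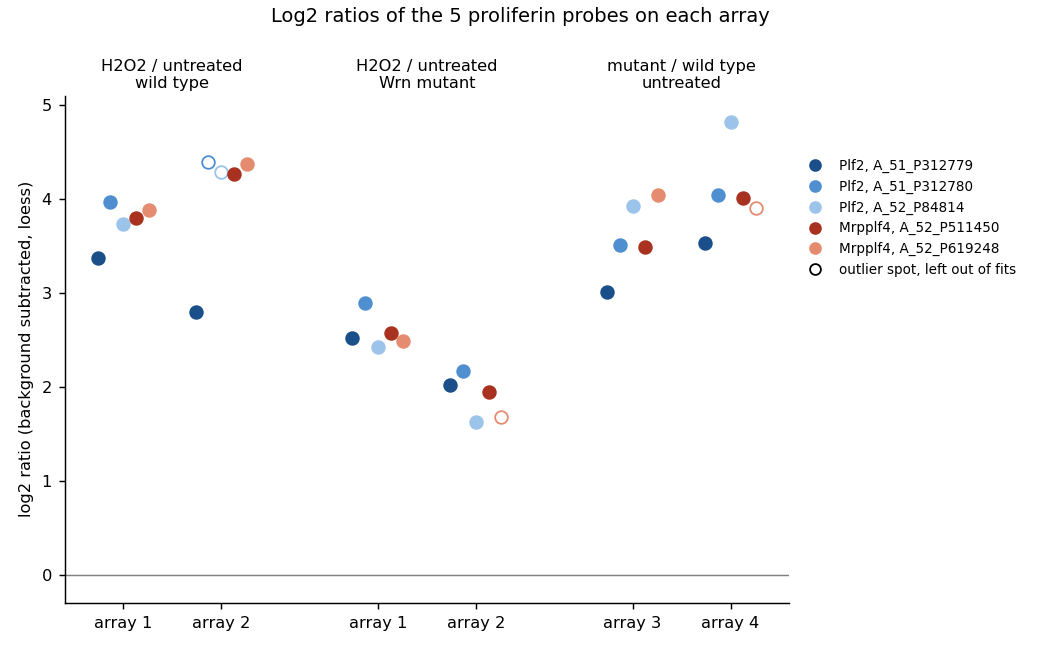
Log2 ratios (vertical axis, background subtracted and loess normalized) of the 5 proliferin probes on the 6 arrays, 2 arrays for each of the 3 comparisons. Each point is 1 probe on 1 array, and open points are spots marked as outliers. The 30 points run from 1.63 to 4.82, the 10 of the mutant H2O2 arrays (1.63 to 2.89) lie lowest as a group, and A_51_P312779 lies apart from the other probes on wild type array 2.

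In Wrn Δhel/Δhel cells the same 5 probes had smaller ratios. A_52_P511450 gave 2.58 and 1.95 on mutant arrays 1 and 2, a mean of 2.26 (SE 0.23) or 4.80-fold, and A_51_P312779 gave 2.52 and 2.02, a mean of 2.27 (SE 0.23) or 4.83-fold. A_51_P312780 gave 2.89 and 2.17, and A_52_P84814 gave 2.43 and 1.63. The Prl2c5 probe A_52_P619248 gave 2.49 on array 1 and 1.67 at its outlier spot on array 2. All 5 probes were lower on array 2 than on array 1, by a median of 0.72 log2 units. The median over the probes was 2.27 (4.83-fold, range over the fitted values 4.07 to 5.77), and A_51_P312780, A_51_P312779, A_52_P511450 and A_52_P84814 ranked 1, 2, 3 and 5 among the 11145 bright probes of this comparison. For 4 probes, outlier spots included, the value on each mutant array was below that on each wild type array by more than the 2 arrays of a genotype differed. A_51_P312779 was the exception, with 2.80 on wild type array 2 and 2.52 on mutant array 1. The fitted difference, mutant response minus wild type response, had a median of -1.64 log2 units and ran from -1.77 for A_52_P511450 to -0.81 for A_51_P312779. With median centring in place of loess, the mutant median was 3.16 and the median difference -1.11. These differences come from the contrasts by which the genes were selected.

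Untreated mutant cells stood far above untreated wild type cells in the proliferins. A_52_P511450 gave log2 ratios of mutant over wild type of 3.49 and 4.01 on arrays 3 and 4, a mean of 3.75 (SE 0.23) or 13.5-fold (limma adjusted p = 0.000442). A_51_P312779 gave 3.01 and 3.53, a mean of 3.27 (SE 0.23) or 9.65-fold (limma adjusted p = 0.000661). A_51_P312780 gave 3.51 and 4.04, a mean of 3.77 (SE 0.24) or 13.7-fold (limma adjusted p = 0.000928). On both arrays the order of these probes was the same, and A_51_P312779 was again the lowest.

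A_52_P84814 gave 3.92 and 4.82, a mean of 4.37 (SE 0.29) or 20.7-fold (limma adjusted p = 0.00101), the highest of the 5. The Prl2c5 probe A_52_P619248 gave 4.04 on array 3, its only fitted value here (SE 0.29, limma adjusted p = 0.00227), and 3.90 at its outlier spot on array 4. All 5 probes were thus called as higher in the mutant at an adjusted p under 0.05, where 10.2% of the 41099 probes tested were called in that direction. With Feature Extraction's own log ratios A_52_P619248 missed the threshold (4.11, limma adjusted p = 0.0507). The main fit shares its spread with the H2O2 arrays. With only arrays 3 and 4 in the fit, the probes with values on both had limma adjusted p from 0.00308 to 0.00573. The median over the 5 was 3.77 (13.7-fold). The probe with the largest ratio, A_52_P84814, ranked 11 of 14551 bright probes, and the others with values on both arrays ranked 23, 24 and 39, so that a number of other probes differed by more between the untreated genotypes. The 5 probes overlap in the transcripts they read and are not independent measurements of the genotype.

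Because the ratios join 2 samples on 1 array, the level of each channel shows where the differences lie. Levels are log2 intensities after loess within and Aquantile scaling between arrays, with outlier spots kept so that every probe has a value, and they are compared only within a probe. For A_52_P511450, untreated wild type cells stood at 8.07 and 8.22 in Cy3 of arrays 3 and 4 and at 8.81 and 7.81 in Cy3 of the wild type treatment arrays. Untreated mutant cells stood at 10.95 and 12.44 in Cy3 of the mutant treatment arrays and at 11.57 and 12.23 in Cy5 of arrays 3 and 4. After H2O2, wild type cells stood at 12.62 and 12.08 and mutant cells at 13.53 and 14.39, all in Cy5.

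With the mutant in Cy5 of arrays 3 and 4, the 4 untreated wild type samples were thus the lowest, the treated mutant samples the highest, and the untreated mutant samples stood near the treated wild type samples. With the dyes as labelled, the Cy5 samples of arrays 3 and 4 would be untreated wild type cells that stood above those in Cy3 of the wild type treatment arrays by a median of 3.59 log2 units over the 5 probes, and the order would not hold. Within Cy3, untreated mutant cells exceeded untreated wild type cells on the treatment arrays by a median of 3.44 log2 units over the 5 probes (range 2.66 to 3.74, 10.9-fold), and by 2.71 (6.54-fold) over the 2 probes without an outlier spot when such spots were left out. With the spots kept there was no overlap between the arrays for any of the 5 probes. Over all 17800 bright probes, 27.2% were without overlap in that direction. Scaled by the 75th percentile of each channel, the median was 2.65 (6.28-fold). These are other arrays than those of the untreated comparison, and whether they carried RNA of other cultures is not given in the sources used here. They are, however, the arrays whose H2O2 ratios the selection used. A low untreated wild type signal raises such a ratio, so this Cy3 comparison is a description and was not tested.

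Within Cy5, treated mutant cells exceeded treated wild type cells by a median of 1.69 log2 units (range 1.61 to 1.85, 3.23-fold), again without overlap for any of the 5 probes, against 27% of bright probes in that direction. With 75th percentile scaling the median was 0.98 (1.98-fold). These channels too belong to the ratios used for the selection, and the comparison is a description. Treated wild type and untreated mutant cells, also within Cy5, differed by a median of 0.45 (range -0.19 to 0.72), and for 3 of the 5 probes their arrays overlapped. With 75th percentile scaling the median was 0.87 and the arrays of 1 probe overlapped. The order of treated wild type and untreated mutant levels is therefore not separated by these arrays, while treated mutant cells stood above untreated mutant cells by a median of 2.06 (range 1.47 to 2.51). Both of these comparisons take Cy5 of arrays 3 and 4 as the untreated mutant. With the dyes as labelled, the same 0.45 and 2.06 would be treated wild type and treated mutant cells over untreated wild type cells.

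Proliferin levels of samples of 1 genotype differed between arrays too. With 2 arrays per comparison, culture, labelling, hybridization and scaling cannot be told apart in these differences. In Cy3, the untreated mutant sample of array 2 stood above that of array 1 by a median of 1.49 log2 units over the 5 probes (range 1.40 to 1.78, 2.80-fold), and by 1.70 with 75th percentile scaling. The treated sample of array 2 was higher than that of array 1 by only 0.85. Since the log2 ratio is Cy5 minus Cy3 of the same array, the smaller ratio on mutant array 2 follows from these levels by arithmetic. The untreated wild type samples of arrays 1 and 2 differed by a median of 0.64 log2 units, array 2 being the lower, and by 0.30 in the other direction with 75th percentile scaling. Between the samples of arrays 3 and 4 the median Cy3 difference was 0.14, and 0.49 with 75th percentile scaling.

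**Figure D2:**
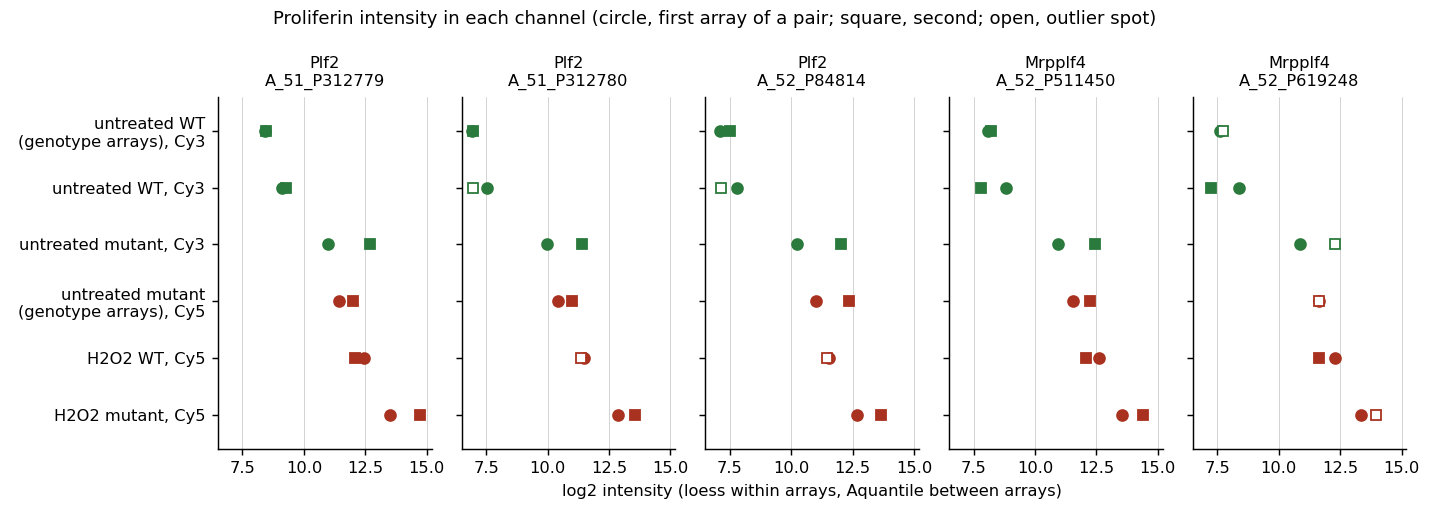
Log2 intensity (horizontal axis) of each proliferin probe in the 12 channels, 1 panel per probe, with Cy3 samples in green and Cy5 samples in red, circles for the first and squares for the second array of a pair, and open symbols for outlier spots. In each panel untreated wild type cells lie lowest and H2O2-treated mutant cells highest, and the untreated mutant symbols in Cy3 are far apart (10.95 and 12.44 for A_52_P511450).

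The other genes of the prolactin family were mostly near background. Of 23 other family genes listed, 21 had a probe with a value, and only Prl3b1 (placental lactogen II) and Prl8a8 were well above background in all 12 channels, while 7 were so in 3 channels or fewer. After H2O2, limma called none of the 21 in wild type cells (5 had an unadjusted p under 0.05) and none in mutant cells (0 had). Over all genes, 0.446% were called as higher and 0.419% as lower in wild type cells, and 0% in either direction in mutant cells, where 4945 of 41052 probes had an unadjusted p under 0.05. The family's log2 ratios ran from -1.11 to 0.97 in wild type and from -0.69 to 0.43 in mutant cells, with medians of 0.04 and -0.18.

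Between untreated genotypes, 1 family gene was called as higher in the mutant and 1 as lower, against 10.9% and 8.51% of all genes. Prl8a8, a placental prolactin-like protein, gave 0.75 and 0.93 on arrays 3 and 4 (mean 0.84, SE 0.23, limma adjusted p = 0.0413). Prl, the pituitary hormone prolactin itself, gave -1.86 and -2.07 (mean -1.97, SE 0.31, limma adjusted p = 0.00755), and its Cy5 signal passed background on 1 array only. The 21 genes ran from -1.97 to 0.84, below the 3.27 to 4.37 of the proliferin probes.

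**Figure D3:**
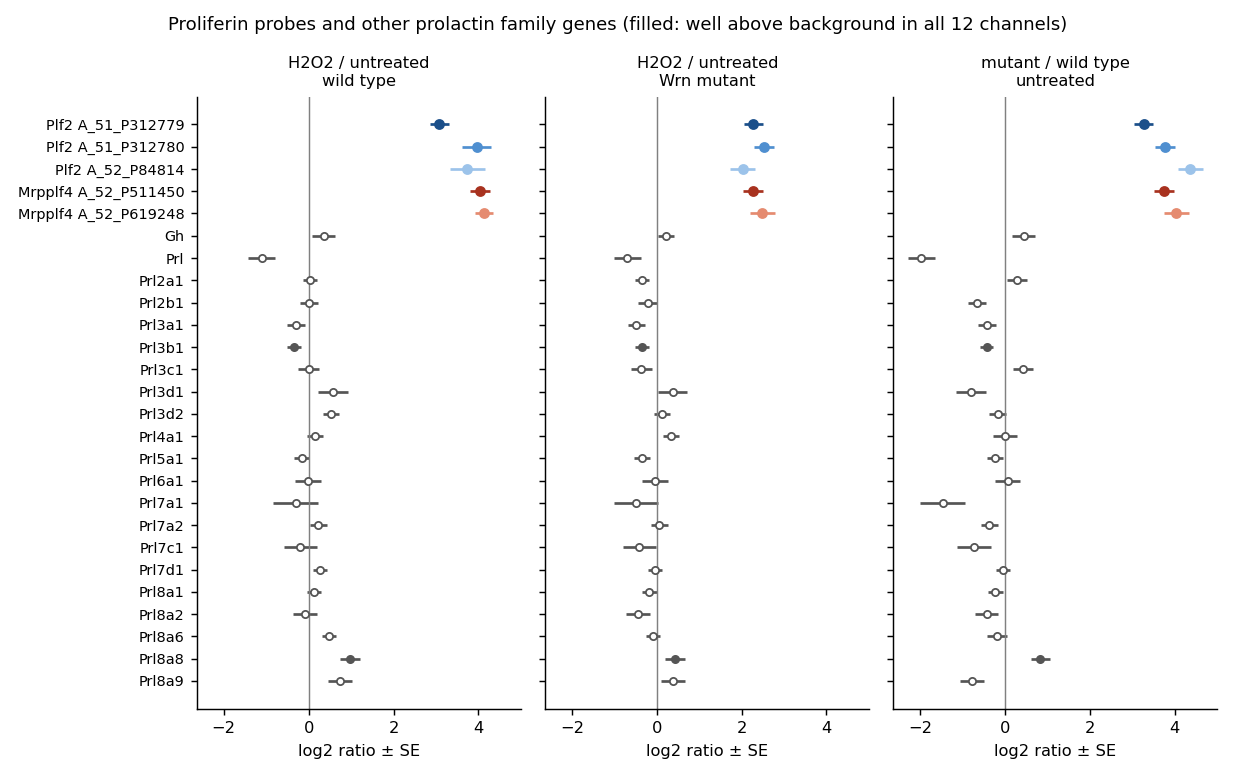
Fitted log2 ratios with standard errors (horizontal axes) of the 5 proliferin probes in colour and of 21 other prolactin family genes in grey, 1 panel per comparison, with filled points for those well above background in all 12 channels. The proliferin probes lie between 2.03 and 4.37 and the other genes between -1.97 and 0.97, most of them measured close to background.

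Among 10 genes of the receptors and signalling of these hormones, none was called after H2O2 in either genotype (2 in wild type and 3 in mutant cells had an unadjusted p under 0.05). Igf2r, whose product binds proliferin, had log2 ratios of 1.39 and 1.61 between untreated mutant and wild type cells (mean 1.50, SE 0.20, limma adjusted p = 0.00639), and of -0.02 (1 array) and 0.59 after H2O2 in wild type and mutant cells. Prlr, the prolactin receptor, was measured at 0.38 and 0.00 (mean 0.19, limma adjusted p = 0.508), with Cy5 well above background on 3 of 6 arrays. The growth hormone receptor gene Ghr (0.92, limma adjusted p = 0.0148) and the cytokine signalling inhibitors Socs1 (0.85, limma adjusted p = 0.0155) and Cish (0.84, limma adjusted p = 0.0243, Cy5 above background on 1 array only) were higher in untreated mutant cells as well. Jak2, the kinase bound to the prolactin receptor, was lower (-2.01, limma adjusted p = 0.0137). In all, 4 of the 10 were called as higher and 1 as lower, against 10.9% and 8.51% of all genes.

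The AP-1 subunits, which act on the proliferin promoter, were not called after H2O2 in either genotype, 24 hours after a pulse of 1 hour (2 of 7 had an unadjusted p under 0.05 in each). Fos stood at 0.12 in wild type and -0.21 in mutant cells, Jun at 0.26 and 0.65, and Junb at 0.25 and 0.04. The Cy5 signal of Fos was well above background on 1 wild type H2O2 array only. It was so on no mutant H2O2 array and on no array of untreated cells. Its Cy3 signal was so on 1 mutant H2O2 array. The Fos ratios, including that between untreated genotypes, were thus measured near background and do not show whether Fos changed. Fosl1, which encodes Fra-1, stood at 0.97 in wild type cells on the 1 array with a value (limma adjusted p = 0.133) and at 0.49 in mutant cells. Between untreated genotypes Jund was higher in the mutant (0.84, limma adjusted p = 0.0166) and Fosl1 lower (-0.75, limma adjusted p = 0.0477), while Fos (0.05), Jun (-0.67, limma adjusted p = 0.0923) and Junb (-0.20) did not pass. Of the 7, 1 was called as higher and 1 as lower, against 10.9% and 8.51% of all genes. Fosl2, named here after its values were seen, had the lowest ratios of the 7 in all 3 comparisons, at -1.53 and -1.02 after H2O2 in wild type and mutant cells (1 array each, limma adjusted p = 0.14 and 0.433) and -1.13 between untreated genotypes (limma adjusted p = 0.0569).

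Of 10 growth factors that act on fibroblasts, Fgf2 was the 1 called after H2O2, as lower in wild type cells (-1.43 and -0.88, mean -1.16, limma adjusted p = 0.0487, Cy5 above background on 1 array only). Over all genes, 0.419% were called as lower in wild type cells. The Fgf2 call was lost with a replicate block and at the study's thresholds. With only the wild type pair in the fit, 16 genes across the 5 lists of family, signalling, AP-1, growth factor and trophoblast genes were called. The share over all genes in that fit is not given here. In mutant cells none was called (3 had an unadjusted p under 0.05). Between untreated genotypes the mutant was lower in Fgf2 (-1.41, limma adjusted p = 0.00404) and in Hbegf, a ligand of the epidermal growth factor receptor (-1.90, limma adjusted p = 0.00346), and higher in Tgfb2 (1.26, limma adjusted p = 0.00429). Of the 10, 1 was called as higher and 2 as lower, against 10.9% and 8.51% of all genes.

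The cells were checked for their type. By the brightest probe of each gene, 9 of 10 fibroblast markers were well above background in all 12 channels, with mean Cy3 signals of 192 to 54655 over the 10. Of 11 trophoblast markers, 2 were (Ascl2 and Prl3b1), with a median Cy3 signal of 130 over the 11 and with the giant cell hormone gene Prl3d1 at 152. None of the 11 was called after H2O2 (1 had an unadjusted p under 0.05 in wild type and 0 in mutant cells), and between untreated genotypes 1 was called as higher, the placental cathepsin gene Ctsq (1.20, limma adjusted p = 0.0168). Over all genes, 10.9% were called as higher between untreated genotypes. Prl3b1 and Prl3d1 also belong to the family list above. Among 5 macrophage markers 1 was well above background in all 12 channels by its brightest probe, and none was called in any comparison (0, 1 and 0 had an unadjusted p under 0.05 after H2O2 in wild type cells, in mutant cells and between untreated genotypes).

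Some fibroblast markers moved with the genotype. Of 9 with a value, 4 were called as higher in untreated mutant cells and 0 as lower, against 10.9% and 8.51% of all genes. They were the proteoglycan genes Dcn (2.76, limma adjusted p = 0.00165) and Lum (1.15, limma adjusted p = 0.0342) and the receptor genes Pdgfra (2.21 on 1 array, limma adjusted p = 0.0116) and Pdgfrb (1.28, limma adjusted p = 0.00905). The median over the 9 was 0.81, with Col1a1, Col3a1 and Vim read by dimmer probes because their brightest ones had outlier spots. The dimmer probe of Vim was well above background in Cy3 on 1 array and that of Col3a1 on 5. Neither was so in Cy5 on any array, so the ratios of these probes (-0.30 and -0.76) were measured near background. In bulk RNA a larger share of cells of a kind and more transcript per cell cannot be told apart, and the part of either in the proliferin difference was not tested. After H2O2 none of the markers was called (4 in wild type and 1 in mutant cells had an unadjusted p under 0.05).

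The genes whose 6 log2 ratios lay nearest to the mean of the proliferin probes were sought among 8055 other bright probes with a value on every array. The nearest were Dhrs3, a retinal reductase gene (Euclidean distance 3.72), Vldlr, the very low density lipoprotein receptor gene (3.95), Niban (now Niban1, 4.40), D330038I09Rik (now Aldh1l2, a mitochondrial folate enzyme gene, 4.42) and A730093L10Rik (4.54). The proliferin probes, which define the mean and overlap in the transcripts they read, lay 0.28 to 1.52 from it. They were selected for high ratios after H2O2, so a large distance of other genes in size is partly set by that choice. Dhrs3 and Niban lay near the untreated difference, at 4.16 and 4.33, but stood at 1.71 each after H2O2 in wild type cells and at 0.89 and 0.18 in mutant cells. Vldlr stood at 2.33, 0.41 and 2.57 and D330038I09Rik at 2.50, -0.33 and 3.02 in the same order of wild type H2O2, mutant H2O2 and untreated genotypes. These genes were picked for their pattern, so that their values are a description over 6 arrays.

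**Figure D4:**
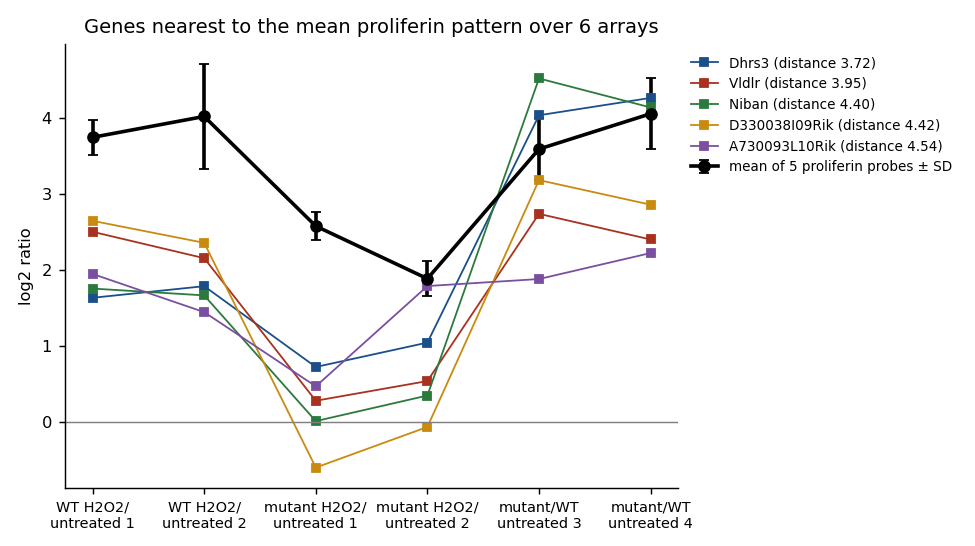
Log2 ratios (vertical axis) on the 6 arrays (horizontal axis) of the mean of the 5 proliferin probes (black, with the SD over probes) and of the 5 genes nearest to it by Euclidean distance (coloured lines). The proliferin mean is 3.75 and 4.03 on the wild type H2O2 arrays and 2.58 and 1.89 on the mutant H2O2 arrays, where Vldlr, Niban and D330038I09Rik lie at or below 0.54.

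In the RefSeq gene table the block runs Prl2c3, Prl2c2, Prl2c5, with no measured gene within it. Of the 3 nearest measured genes before it, Lgals8 was higher in untreated mutant cells (0.90, limma adjusted p = 0.0103). Edaradd (-0.10, 1 array, Cy5 well above background on neither array) and Ero1b (0.01, Cy5 well above background on 1 array only) did not pass. Of the 3 after it, Gpr137b was higher (1.21 and 0.87, mean 1.04, limma adjusted p = 0.00723), Nid1 stood at 0.36 (limma adjusted p = 0.214), and Lyst was lower by at least 1.17-fold (limma adjusted p = 0.0417), its Cy5 signal not being well above background on either array. Over all genes, 10.9% were called as higher and 8.51% as lower between untreated genotypes. After H2O2 none of the 6 was called. Gpr137b had log2 ratios of 1.01 and 0.93 in wild type cells (limma adjusted p = 0.0509) and of 0.70 and 0.66 in mutant cells. No neighbour came within 2 log2 units of the proliferin probes in the wild type H2O2 or the untreated comparison, except Nid1 after H2O2 (1.20 on 1 array, against 3.08 for A_51_P312779).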

How the data were processed

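Expression was measured on 6 two-colour Agilent Whole Mouse Genome 60-mer arrays. The authors deposited, per array, the Cy3 and Cy5 intensity of each spot (mean signal and local background), flags, and Feature Extraction's own log10 ratio. They also deposited their own normalized log2 ratios of Cy5 over Cy3, which correlated with those computed here at r = 0.999 or above on each array. None of the authors' comparison columns entered the main fits, but the direction of the untreated comparison follows the study's list. Their normalized ratios were fitted as an alternative run.

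Local background medians were subtracted, ratios normalized by loess within each array (limma 3.58.1, R 4.3.3, with version 1.17.8 of data.table), outlier and control spots left out, and spots of a probe averaged. All 6 arrays were fitted with lmFit and eBayes, 1 coefficient per comparison (3 residual and 4.18 prior degrees of freedom). P-values were two-sided and Benjamini-Hochberg adjusted over every non-control probe that had a value, and calls were made at 0.05. A gene was read by its brightest probe with a value on every array, otherwise by its brightest probe, and bright means a mean log2 intensity above 6. Of the 16369 accessions on the array, 15402 received current symbols from RefSeq's genes on GRCm38.p6. Promoters were aligned with Biopython 1.88 and plots drawn with pandas 2.3.3 and matplotlib 3.10.9 in Python 3.11.15. The procedure was tested on simulated data.

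The members and the gene lists were chosen with earlier results of these data known. Genes named are all proliferin probes, list genes that were called, the genes Prlr, Igf2r, Fos, Fosl1, Jun and Junb, the 5 genes with the most similar pattern, and the 3 measured neighbours on each side. Ascl2, Prl3b1, Prl3d1, Col1a1, Col3a1 and Vim are named for their signal, outside this rule. With 2 arrays per comparison, their number limits the precision. The treatment arrays were extracted on 1 day and the arrays of untreated cells on 2 days.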

Additional observations from a re-analysis of the deposited data

How the results depend on the processing

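The H2O2 ratios of the 5 proliferin probes and their differences between genotypes kept their sign under each alternative run, and the 5 ratios between untreated genotypes did so except with the dyes as labelled, which gives -3.27, -3.77, -3.75, -4.04 and -4.37 for A_51_P312779, A_51_P312780, A_52_P511450, A_52_P619248 and A_52_P84814, with a median of -3.77. With Feature Extraction's log ratios A_52_P619248 missed the threshold (4.11, limma adjusted p = 0.0507), and 4 of 5 probes were called. Median centring in place of loess raised the medians to 4.48 in wild type, 3.16 in mutant and 4.18 between untreated genotypes, and moved the median difference of responses to -1.11 (-0.35 for A_51_P312779 and -0.76 for A_52_P619248). Treated wild type minus untreated mutant cells in Cy5 changed sign for A_52_P84814, from -0.19 to 0.28 with 75th percentile scaling. Without each array in turn the medians ran from 3.80 to 4.27, from 1.99 to 2.52 and from 3.51 to 4.02, their difference from -1.94 to -1.31, and the probes called from 4 to 5. The 4 were left by dropping the array on which A_52_P619248 had its fitted value. The main fit did not pair samples by the replicate numbers of the treatment arrays. Deviations of same-numbered arrays of the 2 genotypes from their pair means correlated at r = -0.0366 over 29913 probes. With 2 pairs this cannot show whether same-numbered cultures were handled together. With a replicate block the wild type median was 3.60.

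Genes of the 5 lists of hormones, signalling, AP-1, growth factors and trophoblast called in wild type cells numbered 1, against 3 with normexp, 16 with the comparison fitted on its own, 0 with the replicate block and 0 at the study's thresholds. In mutant cells they numbered 0, and 10 fitted on their own. Between untreated genotypes they numbered 13, against 5 fitted on its own, 6 with the replicate block and 2 at the study's thresholds. The lists, in the order named, held 21, 10, 7, 10 and 11 tested genes, with Prl3b1 and Prl3d1 on both the first and the last. Over all genes, the main fit called 0.446% as higher and 0.419% as lower in wild type cells. It called 0% in mutant cells, and 10.9% and 8.51% between untreated genotypes. Shares over all genes under the other settings are not given here. By Pearson correlation over the 12 channels, the 5 most similar genes had r from 0.954 to 0.965. Of the 5 genes nearest by distance, 1 (A730093L10Rik) was among them. The same-dye comparisons other than untreated and treated mutant against wild type, and keeping outlier spots in them, were chosen after seeing the data. The causes of these changes were not tested.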
